A study of Mus musculus with 8 samples.

Results

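Vgf and Dclk2 are 2 mouse genes best known from neurons, and their RNA gave peaks in a Zmat3 crosslinking and immunoprecipitation (CLIP) experiment on fibroblasts. The genes were picked from the control IP over knockout IP comparison of these data, because their peaks lay above the knockout IP there. Members are all called peaks on the strand of the gene with a midpoint in its span, 30 peaks for Vgf and 191 for Dclk2, which makes 221 of the 978429 peaks in all 7 lists. Each control peak counts in a list over input and in a list over the knockout IP. The study profiled mouse embryonic fibroblasts made to express the viral oncoprotein E1A and HrasG12V, and the cells were UV-crosslinked, RNase-treated and precipitated with an antibody to Zmat3. Controls 1 to 3 had the genotype Cas9+;E1A;HrasG12V and the negative-control guide RNAs EV, SPA and ACOCA, in this order. The knockout was 1 line of the genotype Zmat3-/-;E1A;HrasG12V without a guide RNA. Each of the 4 IPs has a matching input, and the inputs enter here only through the over-input values.

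Vgf encodes a secreted precursor protein of the granin type, which neurons and endocrine cells store in dense-core vesicles and cut into peptides, and which is induced by nerve growth factor. Dclk2 encodes a doublecortin-like kinase, in which microtubule-binding doublecortin domains precede a kinase domain related to CaM kinases. Zmat3 is a zinc finger protein that binds RNA and is a transcriptional target of p53.

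Each peak carries a log2 fold and a −log10 p-value, both the authors' values for 1 IP against its comparator. A peak counts as enriched here where both its log2 fold and its −log10 p-value reach 3. The lists held 122284 to 153768 peaks over input in the controls and 167648 in the knockout, and read depth is unknown because no counts are given. The median log2 fold of all peaks was 1.18, 0.88 and 1.00 over the knockout IP in controls 1 to 3. Against input, the 3 control lists had medians of 0.90, 0.60 and 0.60, and the knockout list had 0.23. All 3 over-knockout lists share the 1 knockout library, so they are not independent of each other. The knockout has 1 library and the genes were chosen on this contrast, so values are given without tests. An exact permutation test of 1 against 3 libraries could not go below p = 0.25. The labels do not say whether the control lines came from separate animals.

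The fibroblast label was compared with marker genes. Of 15 fibroblast markers, 8, 10 and 7 had a called peak in the 3 control lists over input and 8 in that of the knockout, with summed peak counts of 197, 235, 153 and 212. The defining fibroblast genes Col1a1, Col1a2 and Thy1 had none in any list, as had S100a4 and Lox, while Col5a1, Fn1 and Pdgfrb had peaks in all 4 IPs. Of 33 neuron marker genes, 8, 13 and 8 had a called peak in controls 1 to 3 and 11 in the knockout, with summed counts of 76, 121, 70 and 77. The defining neuron genes Rbfox3, Elavl3, Elavl4, Syn1, Syp and Snap25 were among the 19 without a called peak in any list. Glial, immune and endothelial markers had at most 3 called peaks per list and IP. Epcam, an epithelial adhesion gene, had 9, 5 and 11 in controls 1 to 3 and 10 in the knockout. Of the other epithelial markers, Krt18 had 0, 5 and 0 and 8, Cdh1 had 0, 0 and 1 and 1, and Krt8 had none. The summed count of neuron markers in the knockout lay within the range of the controls.

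The only stretch of either RNA whose sequence was at hand lies at the start of Dclk2. It is shown because control 1 had a called peak there of 5 nt (capitals), which covers bases 110 to 114 from the 5′ end of the RefSeq gene span. In RefSeq's promoter entry for Dclk2 the start site is 86920884, inside the span, and from there the peak covers bases 42 to 46. The 30 bases are RefSeq's, build GRCm38.p6, chr3:86920835-86920864, minus strand, written 5′ to 3′.
Dclk2 start: ttcctcaccatctccctctcgGTGTGgttt
The log2 fold of this control 1 peak was 2.18 against the knockout IP and 1.90 against input, so it was not enriched. The sequences of the stronger peaks described next were not analysed here, nor was their place in exons or introns.

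Vgf showed called peaks in controls 1 and 3 and none in control 2 or the knockout. Its span covers 8051 nt on the plus strand (mm10, chromosome 5, 137025301–137033351). There were 6 peaks in control 1, 0 in control 2, 9 in control 3 and 0 in the knockout, a control mean of 5.00 ± 4.58 (SD, n = 3). The pattern "above the knockout" therefore describes 2 of the 3 control lines, and control 2 sat with the knockout. No peak lay on the other strand. Called peaks of an IP do not give the amount of Vgf RNA in the cells. In a bulk IP, fewer cells with Vgf RNA and less Vgf RNA per cell cannot be told apart. The knockout was a separately derived line, so the loss of Zmat3 and the origin of the line cannot be told apart either.

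Over the knockout IP, the Vgf log2 folds ran from 2.01 to 5.35 in control 1, with a median of 4.18, and from 3.25 to 5.98 in control 3, with a median of 4.28. Enriched peaks numbered 5 of 6 in control 1 and 9 of 9 in control 3, where 0.621% and 0.648% of all called peaks were enriched. In control 2, where Vgf had no peak, the share over all peaks was 1.09%. Among genes with at least 5 called peaks, the Vgf median ranked 1 of 5810 in control 1 and 1 of 5612 in control 3. This contrast chose the gene, so its rank is a description. The count of enriched Vgf peaks, 14 over the controls, was 9 without control 1 and 5 without control 3. The enriched peak nearest to the thresholds had a log2 fold of 3.18 and a −log10 p-value of 3.24, and the 1 peak below them had 2.01 and 1.495, both in control 1.

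Over input, Vgf was close to no change. The log2 folds ran from -0.14 to 0.58 in control 1 and from -0.70 to 0.66 in control 3, with medians of 0.33 and 0.14. Of the peaks, 5 of 6 and 5 of 9 lay above 0, but both medians were below the median of all peaks of their list, at -0.57 and -0.46 relative to it. No Vgf peak was enriched over input, against 1.02% and 0.494% of all called peaks in controls 1 and 3. Among genes with at least 5 peaks, 19.5% in control 1 and 19.6% in control 3 had a lower median over input than Vgf. The knockout comparison put the Vgf medians 2.99 and 3.29 above the list medians. The Vgf peaks of controls 1 and 3 thus lay near 0 against their inputs and well above the knockout IP.

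**Figure D1:**
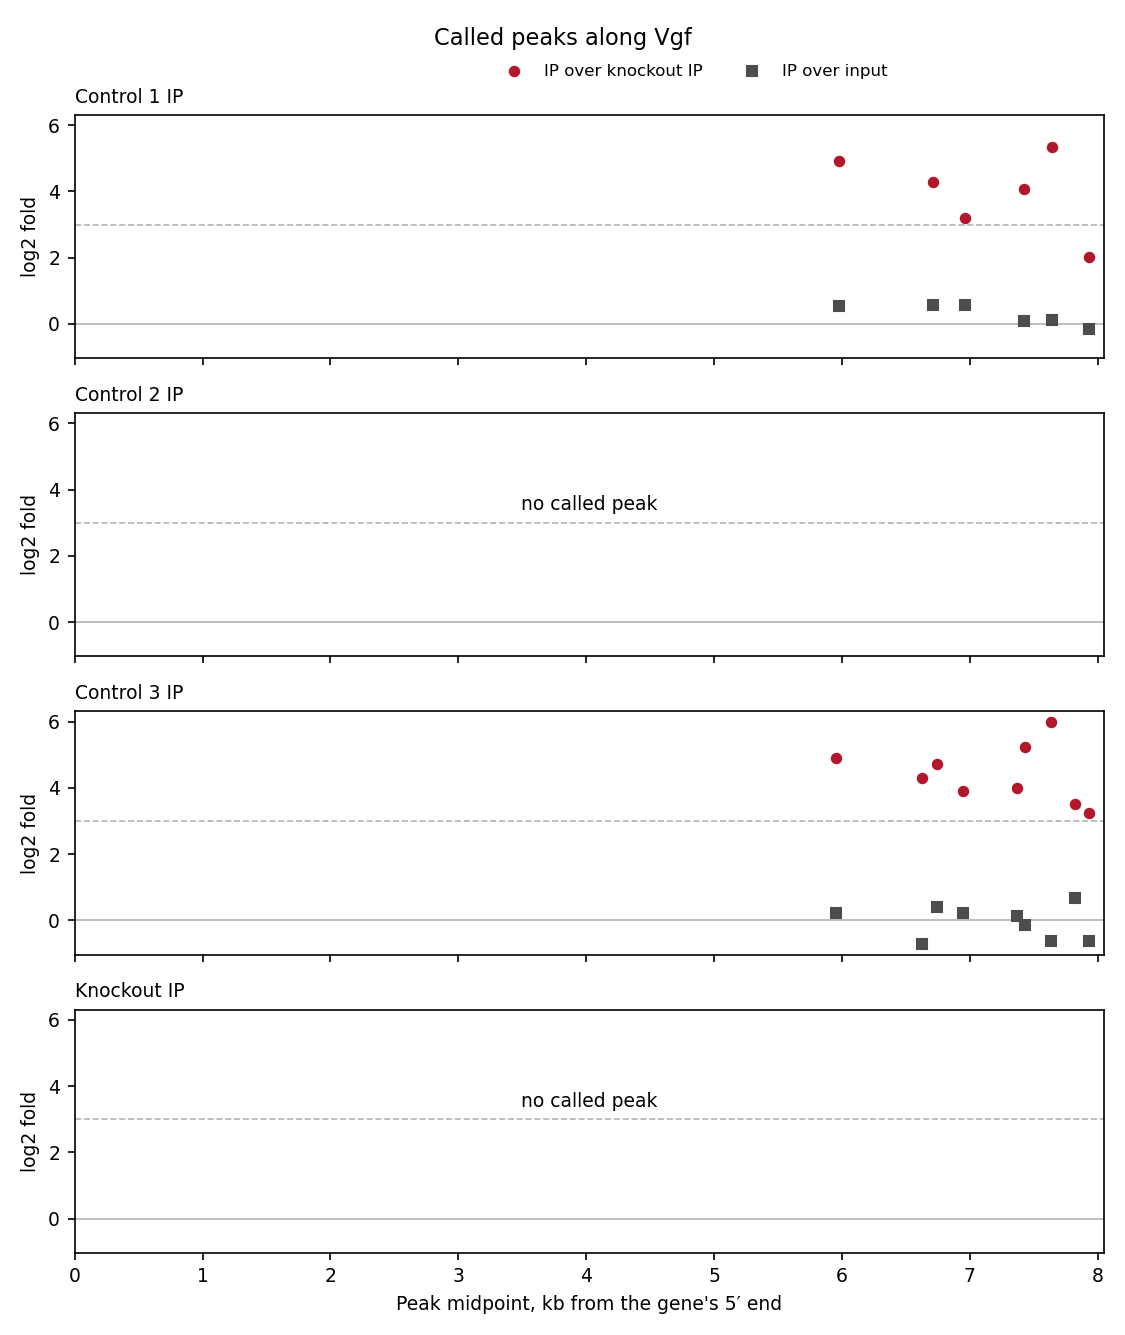
The log2 fold of each called Vgf peak (vertical axis) is plotted against the distance of its midpoint from the 5′ end of the Vgf span in kb (horizontal axis), with 1 panel per IP. Circles give the IP over the knockout IP and squares the IP over input, the solid line marks 0 and the dashed line a log2 fold of 3. In controls 1 and 3 the circles lie at 2.01 to 5.98 and the squares at -0.70 to 0.66, and the other panels have no peak.

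The Vgf peaks lay together at the 3′ end of the span. They fell within 2.02 kb, from 5.93 kb after the 5′ end of the span to 95 nt before its 3′ end. Overlapping peaks of any list were joined into sites, which gave 8 sites, of which 6 had peaks of both controls 1 and 3 and 2 had a peak of control 3 alone. The site with the highest mean over the knockout IP, 137032890–137032982, had 5.35 in control 1 and 5.98 in control 3, a mean of 5.66 ± 0.44 (SD, n = 2). Its values over input were 0.12 and -0.63, a mean of -0.26 ± 0.52 (SD, n = 2). The mean over input changed sign, to 0.12, without control 3.

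The other shared Vgf sites also lay higher over the knockout IP than over input, by means of 3.01 to 4.54 against 5.92 at the strongest site. The first, 137031235–137031310, had 4.92 in control 1 and 4.90 in control 3 over the knockout IP and 0.55 and 0.22 over input. The site at 137031992–137032093 had 4.30 and 4.71 over the knockout IP and 0.56 and 0.40 over input. At 137032634–137032766 the highest values were 4.06 and 5.23 over the knockout IP and 0.07 and 0.14 over input. Those of control 3 came from different peaks, and its peak with 5.23 had -0.15 over input. The mean difference of 4.54 is that of this site and rests on these highest values. The weakest shared sites were 137032225–137032286, with 3.18 and 3.90 over the knockout IP, and 137033211–137033256 at the 3′ end, with 2.01 and 3.25. Their values over input were 0.58 and 0.22 at the former and -0.14 and -0.61 at the latter. Peak by peak, the log2 fold over the knockout IP exceeded that over input in 6 of 6 peaks of control 1 and 9 of 9 of control 3, by medians of 3.86 and 4.31. Over all peaks of these lists it did so in 57.5% and 60.4%, with median differences of 0.28 and 0.57. None of the 8 Vgf sites was enriched over both comparators in any control. How often this holds over all sites was not computed, so nothing is read from it.

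Dclk2 had called peaks in all 4 IPs, with fewer in the knockout. Its span covers 134803 nt on the minus strand (mm10, chromosome 3, 86786150–86920952). Controls 1 to 3 had 34, 27 and 29 peaks over input (mean 30 ± 3.61, SD, n = 3), and the knockout, whose list was the longest of the 4, had 11. The knockout count lay below all 3 controls. None of these peaks lay on the other strand. The Dclk2 peaks covered 1851, 1620 and 1630 nt in controls 1 to 3 and 361 nt in the knockout.

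**Figure D2:**
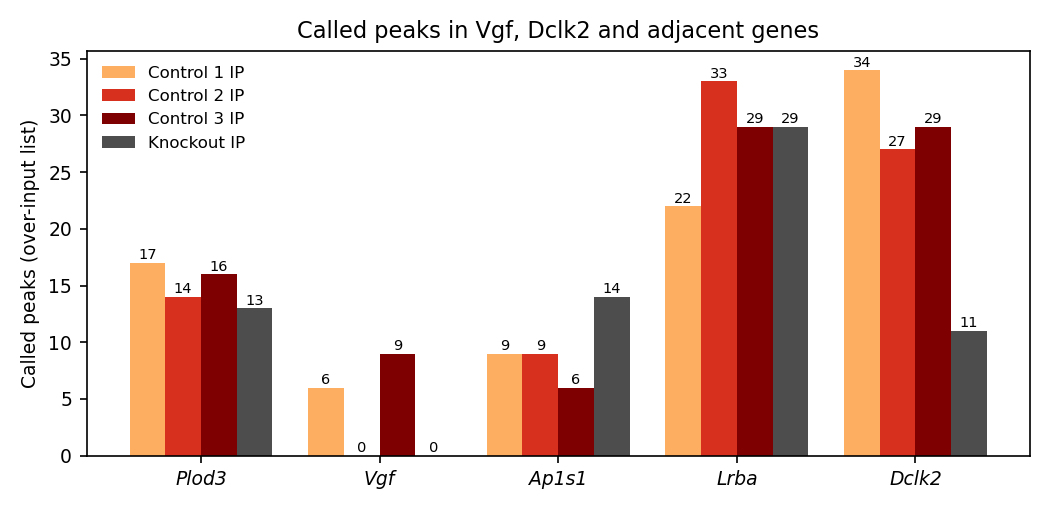
Bars give the number of called peaks in the over-input list of each IP (vertical axis), with 1 bar per IP. The genes (horizontal axis) are Vgf, Dclk2 and their neighbours Plod3, Ap1s1 and Lrba. Neighbours are the nearest protein-coding genes with a called peak. Vgf had 6, 0, 9 and 0 peaks in controls 1 to 3 and the knockout and Dclk2 had 34, 27, 29 and 11, whereas the knockout had 13, 14 and 29 peaks in Plod3, Ap1s1 and Lrba.

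In the nearest protein-coding genes with a called peak on either side, the knockout count lay near or above those of the controls. Plod3, a collagen lysyl hydroxylase gene 28654 nt to the left of Vgf, had 17, 14 and 16 peaks in controls 1 to 3 against 13 in the knockout. Ap1s1, a clathrin adaptor subunit gene 1641 nt to the right, had 9, 9 and 6 and 14. Lrba, 3455 nt to the left of Dclk2, had 22, 33 and 29 and 29. None of these 3 genes had a peak enriched over the knockout IP. Their medians over the knockout IP ranged from 0.39 for Ap1s1 in control 2 to 1.58 for Plod3 in control 3. Cd1d1, on the right of Dclk2, had 1 called peak over input, in control 2.

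Over the knockout IP, the Dclk2 log2 folds had medians of 2.18, 1.88 and 2.58 in controls 1 to 3, which is 1.00, 1.00 and 1.58 above the list medians. The highest values were 5.35, 3.88 and 4.28, and the lowest were 0.60, 0.30 and 0.26, so that all 90 control peaks lay above 0. Enriched were 4 of 34 peaks in control 1, 1 of 27 in control 2 and 5 of 29 in control 3. As shares these are 11.8%, 3.70% and 17.2%, beside 0.621%, 1.09% and 0.648% of all called peaks. The total of 10 enriched peaks was 6 without control 1 and 5 without control 3. Genes with at least 5 peaks numbered 5810, 6633 and 5612 in controls 1 to 3, and 92.1%, 86.3% and 99.4% of them had a lower median than Dclk2. Its rank from the top was 71, 160 and 16, and many genes tied with it in controls 1 and 2. Since the contrast chose the gene, these shares and ranks are a description as well.

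Over input, Dclk2 peaks lay above the list medians in the controls and at the list median in the knockout. The medians were 1.78, 1.60 and 1.18 in controls 1 to 3, which is 0.88, 1.00 and 0.58 above the list medians, and 0.23 in the knockout, equal to its list median. Of the 11 knockout peaks, 7 had a log2 fold of 0.23, 3 lay below 0, the highest was 0.65, and all had a −log10 p-value of 0. Enriched over input were 1 of 34 peaks in control 1 and 0 in controls 2 and 3 and in the knockout, near the 1.02%, 1.05%, 0.494% and 0.316% of all called peaks. Single Dclk2 peaks over input were therefore seldom past the thresholds, though their median lay above the list median in all 3 controls. In controls 2 and 3 that median is the commonest Dclk2 value of the list, held by 6 of 27 and 5 of 29 peaks. The median −log10 p-values were 0.481, 0.543 and 0.194 in controls 1 to 3, so these medians carry little precision.

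**Figure D3:**
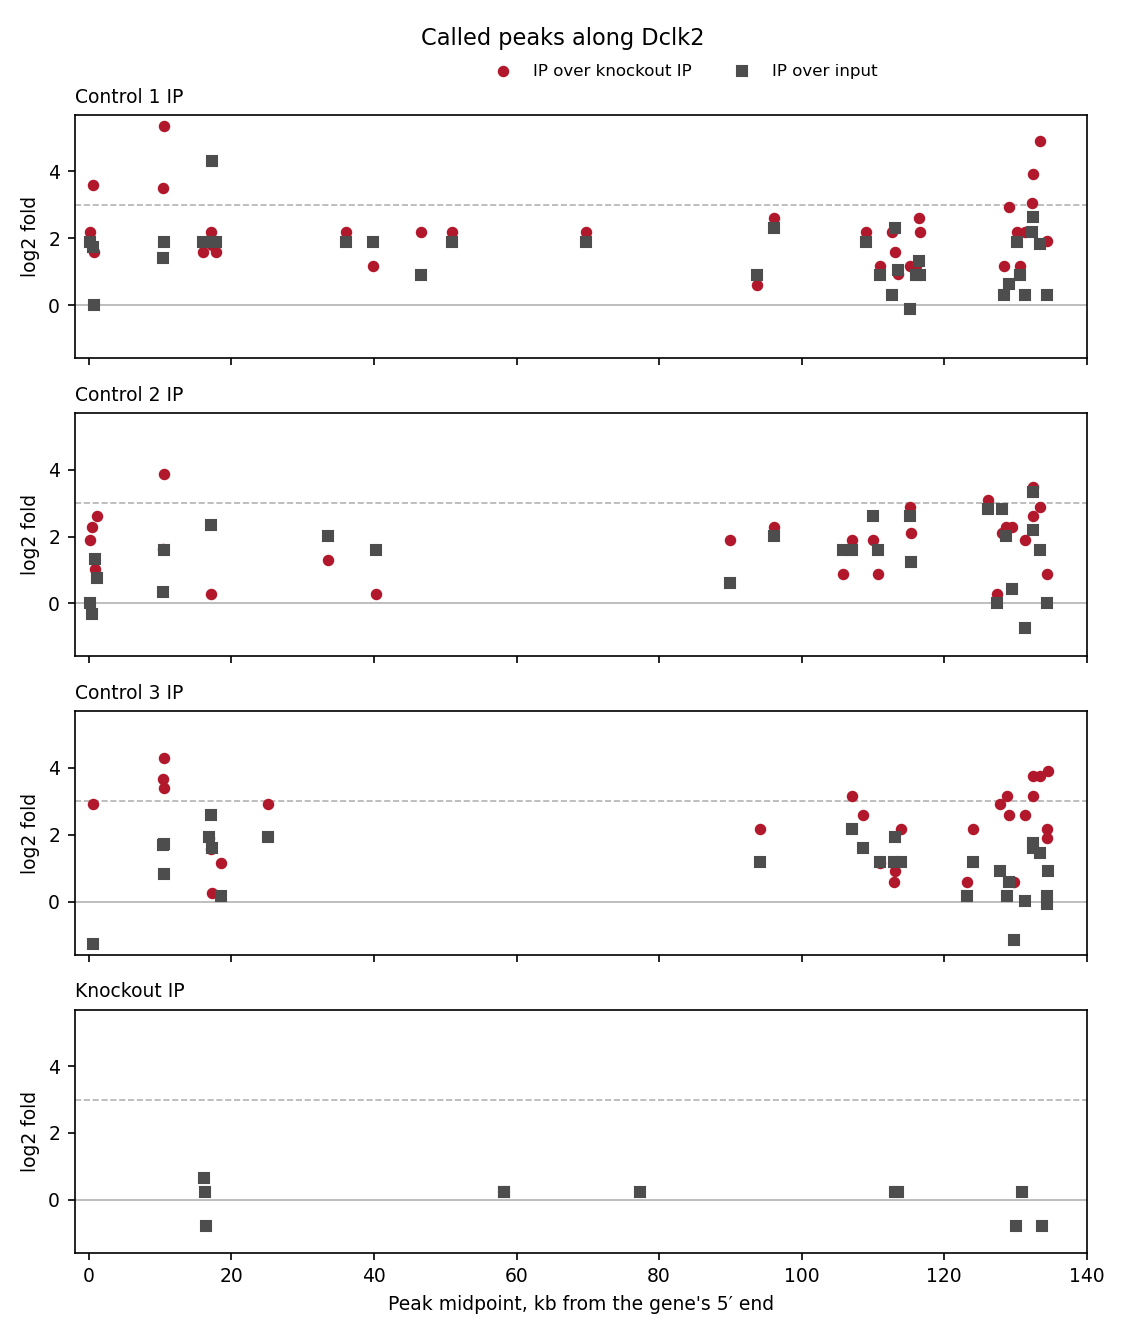
The log2 fold of each called Dclk2 peak (vertical axis) is plotted against the distance of its midpoint from the 5′ end of the gene in kb (horizontal axis), with 1 panel per IP. Circles give the IP over the knockout IP and squares the IP over input, the solid line marks 0 and the dashed line a log2 fold of 3. The highest circles of the controls stand near 10.5 kb, at 5.35, 3.88 and 4.28, with further high circles near the 3′ end of the gene, and the 11 knockout squares lie between -0.77 and 0.65.

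Peaks of Dclk2 fell into 74 sites. Of these, 7 had a peak of all 3 controls, 8 of 2 controls and 50 of 1 control, and 9 had a knockout peak alone. A single Dclk2 site was enriched over the knockout IP in all 3 controls. It spans 86910349–86910485, 10.5 kb after the 5′ end of the gene, and its values in controls 1 to 3 were 5.35, 3.88 and 4.28 (mean 4.51 ± 0.76, SD, n = 3). Control 2 passed there by little, with a −log10 p-value of 3.03. Over input the site had 1.90, 1.60 and 1.71 (mean 1.74 ± 0.15, SD, n = 3), and the knockout had no called peak there. The adjoining site 86910486–86910584 had 3.51 and 3.67 in controls 1 and 3, both enriched, and 1.62 in control 2.

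A second group of Dclk2 sites lay at the 3′ end of the gene. The site 86787440–86787603 had 4.92, 2.88 and 3.75 over the knockout IP in controls 1 to 3, enriched in controls 1 and 3, and 1.83, 1.60 and 1.44 over input. The site 86788409–86788500 had 3.92, 3.47 and 3.75 over the knockout IP, a mean of 3.71 ± 0.23 (SD, n = 3), but passed the p threshold in control 1 alone. Over input it had 2.64, 2.19 and 1.77. Beside it, 86788501–86788616 had 3.06, 2.62 and 3.17 over the knockout IP and 2.19, 3.34 and 1.60 over input. The control 3 peak of this site was the enriched one with the lowest log2 fold, 3.17, while the control 1 peak missed the p threshold with 2.91. At these 3 sites all controls had called peaks, and they differed in which passed. Control 3 alone had a peak at 86786355–86786436, with 3.90 over the knockout IP, which was enriched, and 0.92 over input.

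The Dclk2 peak with the highest value over input lay elsewhere. In the site 86903664–86903912, 17.2 kb after the 5′ end, control 1 had a peak with 4.31 against input and 1.79 against the knockout IP. The highest values of controls 2 and 3 in this site were 2.34 and 2.60 over input and 0.30 and 1.58 over the knockout IP. This was the only enriched Dclk2 peak over input, and it was not enriched over the knockout IP although the knockout had no called peak in this site. None of the 74 Dclk2 sites was enriched over both comparators in the same control. The share of all sites enriched over both was not computed, so nothing is read from this absence.

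By position, the first and last 20 kb of Dclk2 held all enriched peaks. The first 20 kb held 2, 1 and 2 of them in controls 1 to 3, among 9, 7 and 8 called peaks. In the last 20 kb there were 2, 0 and 3 among 13, 12 and 13, so most called peaks also lay in these 2 parts. The stretch between held 12, 8 and 8 called peaks and none of the enriched ones, with maxima of 2.60, 2.30 and 3.17 over the knockout IP. Its medians over the knockout IP were 2.18, 1.59 and 2.17, still above the list medians. In controls 1 and 3 these medians equal the commonest Dclk2 value of the list, held by 11 of 34 and 4 of 29 peaks. They therefore carry little precision, and only the peaks near the ends of the gene passed the thresholds. The knockout peaks shared a site with control peaks at 2 places, 86807443–86807540 and 86807767–86807876, both in the stretch between. At the second, the knockout had 0.23 over input, and controls 1 and 3 had 2.31 and 1.92 over input and 1.60 and 0.90 over the knockout IP.

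Many Dclk2 values repeated exactly. In control 1 the 34 log2 folds over the knockout IP took 15 distinct values, 11 of them at 2.18, and the 11 knockout peaks took 3 distinct values over input. In Vgf the 6 and 9 values over the knockout IP were all distinct from each other. Some equalled Dclk2 values exactly, as with 5.35 in control 1 at the strongest site of both genes. The log2 folds of Vgf are thus stepped as well. The −log10 p-values of Dclk2 over the knockout IP had medians of 0.511, 0.743 and 1.06 in controls 1 to 3, against 5.52 and 6.84 for Vgf in controls 1 and 3. Values of the weaker Dclk2 peaks therefore carry little precision each. Peak by peak, the log2 fold over the knockout IP exceeded that over input in 27 of 34, 18 of 27 and 23 of 29 Dclk2 peaks, by medians of 0.28, 0.28 and 1.57. Over all peaks of controls 1 to 3 the share was 57.5%, 62.3% and 60.4%, with median differences of 0.28, 0.28 and 0.57. The median gap between the comparators was larger in Dclk2 than in all peaks in control 3 and equal to it in controls 1 and 2. There it equals the offset between the commonest Dclk2 values over the knockout IP and over input. These were 2.18 and 1.90 in control 1 and 1.88 and 1.60 in control 2. The equal medians thus rest on repeated values, and nothing is read from them. In Vgf the median gap was larger than in all peaks in both controls with peaks.

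**Figure D4:**
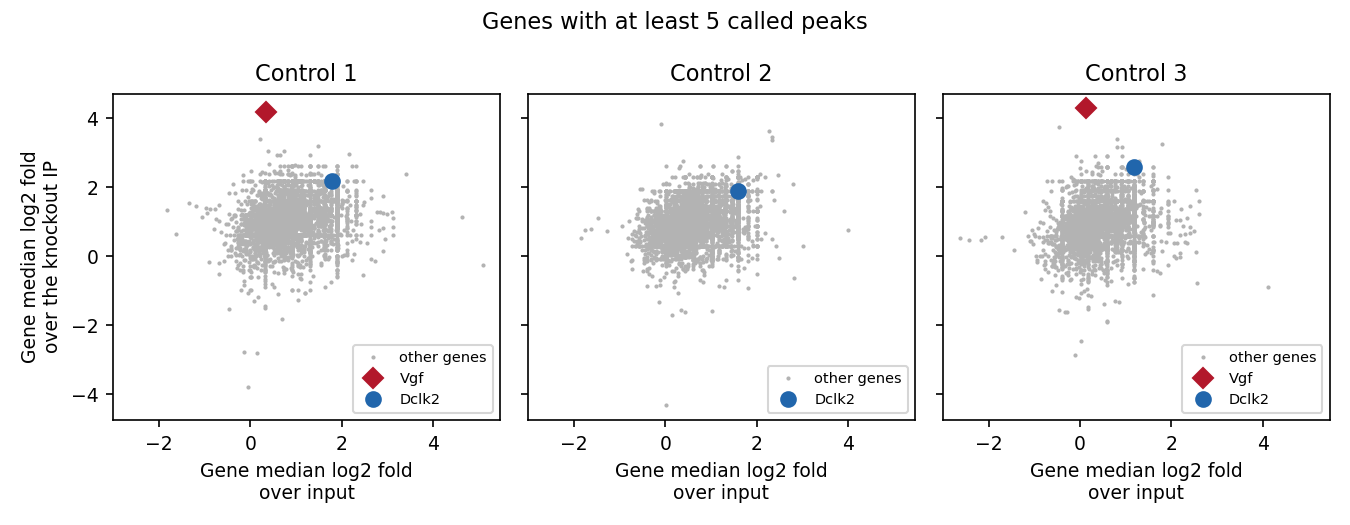
Each point is a gene with at least 5 called peaks, placed by its median log2 fold over input (horizontal axis) and over the knockout IP (vertical axis), with 1 panel per control. Vgf (diamond) stands at 0.33 and 4.18 in control 1 and at 0.14 and 4.28 in control 3, and Dclk2 (large circle) at 1.78 and 2.18, 1.60 and 1.88, and 1.18 and 2.58 in controls 1 to 3.

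Related genes were read from 5 lists, of granins and hormone processing, doublecortins, CaM kinases, microtubule-associated proteins and neuron markers. Together with the cell type markers these lists name 149 genes, of which Vgf and Dclk2 were the only ones with an enriched peak over the knockout IP in at least 2 controls. Of 10530 genes with a called peak in any control, 5.06% met this criterion. The same criterion over input was met by 4.25% of them and by 0 of the 2 members. Vgf and Dclk2 were chosen on this contrast, so nothing is read from their own count. Of the other 147 genes, 0 met the criterion and 6 had an enriched peak in 1 control. Many of the 147, such as 19 of the 33 neuron markers, had no called peak and could not meet it. The 5.06% is therefore not a like base for the 0. The share of all genes with an enriched peak in 1 control was not computed. Of the 9 doublecortin genes, Dclk2 was the 1 with any called peak, and Dcx, Dclk1 and Dclk3 had none in any list.

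Of the 27 granin and hormone processing genes, 16 had no called peak in any list. Among these were the granins Chga, Chgb and Scg2 and the prohormone convertases Pcsk1 and Pcsk2. Cpd, a carboxypeptidase of the secretory pathway, had medians of 1.18, 1.30 and 1.00 over the knockout IP in controls 1 to 3 and 1 enriched peak, in control 2. The convertases Pcsk6 and Pcsk7 had no enriched peak, with medians of 1.60, 1.71 and 1.38 and of 1.18, 1.30 and 1.07. Ptprn, a receptor-like protein of dense-core vesicles, had enriched peaks over input in all 4 IPs, 11 of 39, 9 of 47 and 13 of 36 in controls 1 to 3 against 13 of 24 in the knockout, and 0 over the knockout IP in each control. Ptprn was named after these values were seen.

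Among the 20 CaM kinase genes, whose kinase domain resembles that of Dclk2, 15 had a called peak in a control and 0 were enriched over the knockout IP in 2 controls. Camk2d had 2 enriched peaks and Camkk2 and Mark1 had 1 each, all in control 2, and Mark2 had 0. In control 2 these 3 genes with enriched peaks had 129, 16 and 39 called peaks over input, and 1.09% of all peaks were enriched over the knockout IP. Camk1d, named after its values were seen, had 4 of 55, 4 of 152 and 2 of 57 peaks enriched over input in controls 1 to 3, against 3 of 300 in the knockout. Of the 27 microtubule-associated genes 19 had a called peak in a control, and Mapre3, an end-binding protein gene, had the 1 enriched peak over the knockout IP of this list, in control 2. The microtubule genes Map1s, Map7 and Map1b followed with 0. Mapt and Tubb3, both typical of neurons, had no called peak in any list.

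Of the 33 neuron marker genes, 14 had a called peak in a control and 0 had an enriched peak over the knockout IP in any control. The share of all genes with an enriched peak in any control was not computed, so nothing is read from this 0. Ncam1, a neural cell adhesion gene that other cell types also use, also had fewer peaks in the knockout, with 36, 47 and 27 peaks in controls 1 to 3 against 8 in the knockout. Its medians over the knockout IP were 1.92, 1.88 and 2.17, with maxima of 3.18, 3.10 and 3.17. Dlg4, Nlgn2 and Stx1a, which encode synaptic proteins, had maxima between 1.88 and 3.47. As a whole, the neuron markers with peaks had a median of gene medians of 1.55, 1.30 and 1.19 in controls 1 to 3, where the median over all genes was 1.18, 1.03 and 1.17. For the granin list, Vgf included, these values were 1.18, 0.96 and 1.12, for the CaM kinases 1.34, 1.07 and 1.17 and for the microtubule-associated genes 1.01, 0.88 and 0.63.

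The genes most like each member in pattern were sought by the Euclidean distance over the highest log2 fold of the gene in each control list, among genes with between 0.5 and 2 times as many called peaks. For Dclk2, over 6 lists and 2309 genes, the nearest were Gtpbp2 at a distance of 1.14, then Zbtb40 at 1.42, Chka at 1.46, Ints1 at 1.48 and Mtch1 at 1.55. The highest log2 folds of Gtpbp2 over the knockout IP were 5.12, 4.10 and 4.67 in controls 1 to 3. Vgf had no value in control 2, so its distance runs over 4 lists of controls 1 and 3 and 3690 genes. The nearest was Hmga1b at 1.97, whose near-identical copy Hmga1 makes its counts uncertain. Isg20l2 followed at 2.81, Sh3glb2 at 2.84, Esx1 at 2.94 and Hap1, a huntingtin-associated protein gene, at 2.99. These 5 genes had between 2 and 11 called peaks over input in control 2, where Vgf had 0.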

How the data were processed

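The 7 peak lists were used as the authors deposited them on mm10, the build in the submitters' processing notes. They hold positions, strands, a deposited −log10 p-value (at most 400) and a deposited log2 fold per peak, called per IP, without header. Both units were read from the values. The aligner, the peak caller and the handling of peaks without comparator reads were not given in the sources used here. How the last of these bears on the folds over the knockout IP was not tested.

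Gene spans came from RefSeq (GRCm38.p6). Strand came from the RefSeq promoter table for 17493 of 21900 protein-coding genes, with the strand of Vgf taken from general annotation. Other peaks went to a gene by their midpoint if 1 protein-coding span fitted. Sites join peaks that overlap by at least 1 nt. At a site, the value of a list is its highest log2 fold. Means and SDs run over controls with a called peak. Vgf had no site with all 3 controls, so sites with 2 controls were used. The members and gene lists were chosen with earlier results of these data known. Named list genes are up to 4 per list with most enriched peaks over the knockout IP, then the highest maxima. The joining and assignment steps were tested on planted intervals. Analyses used Python 3.11.15 and pandas 2.3.3.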

Additional observations from a re-analysis of the deposited data

How the results depend on the processing

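The number of enriched Vgf peaks over the knockout IP (14) was 9 with the log2 fold threshold at 4 and 9 with list medians subtracted, and 5 to 14 when 1 control was left out. The number for Dclk2 (10) was 3 with the log2 fold threshold at 4, 3 at a −log10 p-value of at least 5, 18 without a p threshold, 3 with list medians subtracted, and 5 to 9 when 1 control was left out. With list medians subtracted, the strongest Vgf site stood at 4.57 against the knockout IP and -1.003 against input, and that of Dclk2 had 3.49 and 1.04. The Vgf value over input was -0.63 to 0.12 when 1 control was left out, with the change of sign, to 0.12, without control 3, which leaves control 1 alone. Leaving out a control removes its own peaks from the sums. Each value over input already sets an IP against its own input. Between control and knockout IPs, no paired analysis was possible because the knockout has 1 library. Depth is unknown, so no counting error could be given. Steps of the log2 fold occur in both genes, and their coarseness limits the weaker Dclk2 peaks.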

Other observations

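Vgf was 1 of 8 genes with at least 5 called peaks over input in both control 1 and control 3 and none in control 2 or the knockout, among 5072 genes with at least 5 in controls 1 and 3. The others were the interferon-induced antiviral genes Oas1g, Oas3 and Rsad2, the lipoprotein lipase gene Lpl, the adenosine receptor gene Adora1, the kinesin gene Kif21b and Trim71. With control 3 in the place of control 2 there was 1 such gene, Tctn2, and with control 1 in its place there were 2, Cntnap1 and Ginm1. This count and these names were chosen after the data were seen, and the difference of control 2 was not tested.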
